A study of Mus musculus with 3 samples.

Results

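The collagen chain genes were the 44 of 27998 genes in the count matrices whose symbol was Col, a number, the letter a and a number with nothing after it. They were read in single-cell RNA sequencing of mouse lung in 3 libraries with 1 library per group (n = 1). NI was lung of non-irradiated C57BL/6 mice, CONV was lung after 17 Gy to the thorax in conventional mode, and FLASH was lung after the same dose in FLASH mode, an ultra-high dose rate. All groups were females 10 to 12 weeks old. The irradiated mice were under isoflurane and received electrons of 4.5 MeV. The sources used here give neither the number of mice per library nor the time from irradiation to sampling. After filtering, 1704, 2385 and 2252 cells were kept in NI, CONV and FLASH, with medians of 2958.5, 2350 and 1796 unique molecular identifiers (UMIs, each marking 1 captured transcript) per cell.

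Collagens are proteins of 3 chains wound into a helix, and each chain has its own gene. Types I, III and V assemble into the banded fibrils that carry tension, type IV forms the sheet of the basement membrane under epithelium and around vessels, and type VI forms beaded filaments near cells. Other types sit on fibrils, span the cell membrane or carry long sugar chains at basement membranes. In the lung the fibrils lie mostly around airways and vessels, and the type IV sheet holds alveolar epithelium against the capillary. Excess fibrillar collagen is the hallmark of fibrosis, a late effect of thoracic radiation.

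Levels are UMIs scaled to all UMIs of the same cells, in CPM. Values in brackets are 95% intervals for counting error only. They do not cover differences between animals, dissociations or loadings, for which 1 library per group gives no replicate check, so no p-value is given. CPM from this assay counts 3′ ends of molecules and needs no correction for gene length. Cells were clustered without the collagen genes, and clusters were named from other markers, so names read as "like" a type. Cluster 15, led by Mmp3, Gdf10 and Cpxm1, carried 6 of the 9 adventitial fibroblast markers but had none among its 10 leading genes, and is called by its number. The cells compared most were alveolar fibroblast-like (75, 241 and 199 cells in NI, CONV and FLASH), cluster 15 (35, 167 and 137), adventitial fibroblast-like (30, 105 and 103), smooth muscle-like (30, 45 and 33) and alveolar type 2 (AT2)-like (135, 403 and 331). A total of 7, 7 and 5 cell barcodes were shared between NI and CONV, NI and FLASH, and CONV and FLASH.

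Of the 44 members, 21 had at least 100 UMIs over the kept cells, 4 had 30 to 99, 13 had 1 to 29, and 6 had 0. The members with 0 UMIs were Col6a4, Col9a2, Col10a1, Col11a1, Col19a1 and Col24a1. Stromal cells were 19.8% of all kept cells and held 82.9% of the 18239 collagen UMIs. Epithelial cells (20.4% of cells) held 11.2%, endothelial cells (4.61%) 2.30%, and immune cells (55.2%) 3.64%.

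Over all cells the summed collagen level was 721.6 CPM in NI, 1113 CPM in CONV and 1032 CPM in FLASH. Within stromal cells the order was the other way, at 6243 CPM (6054 to 6436), 4726 CPM (4612 to 4841) and 5038 CPM (4890 to 5188). Stromal cells were 10.8%, 24.4% and 21.7% of the kept cells, so the level over all cells moved with their share. The NI total also held 173 thymocyte-like cells and 221 cells of cluster 10, which carried 6 thymocyte markers. CONV and FLASH held 0 cells of either cluster, so the shares are not of like cell mixtures. What these cells mean for the NI sample was not tested. All comparisons below are therefore made within classes. Both irradiated libraries are set against the same NI library, so their ratios to it are not independent of each other.

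**Figure D1:**
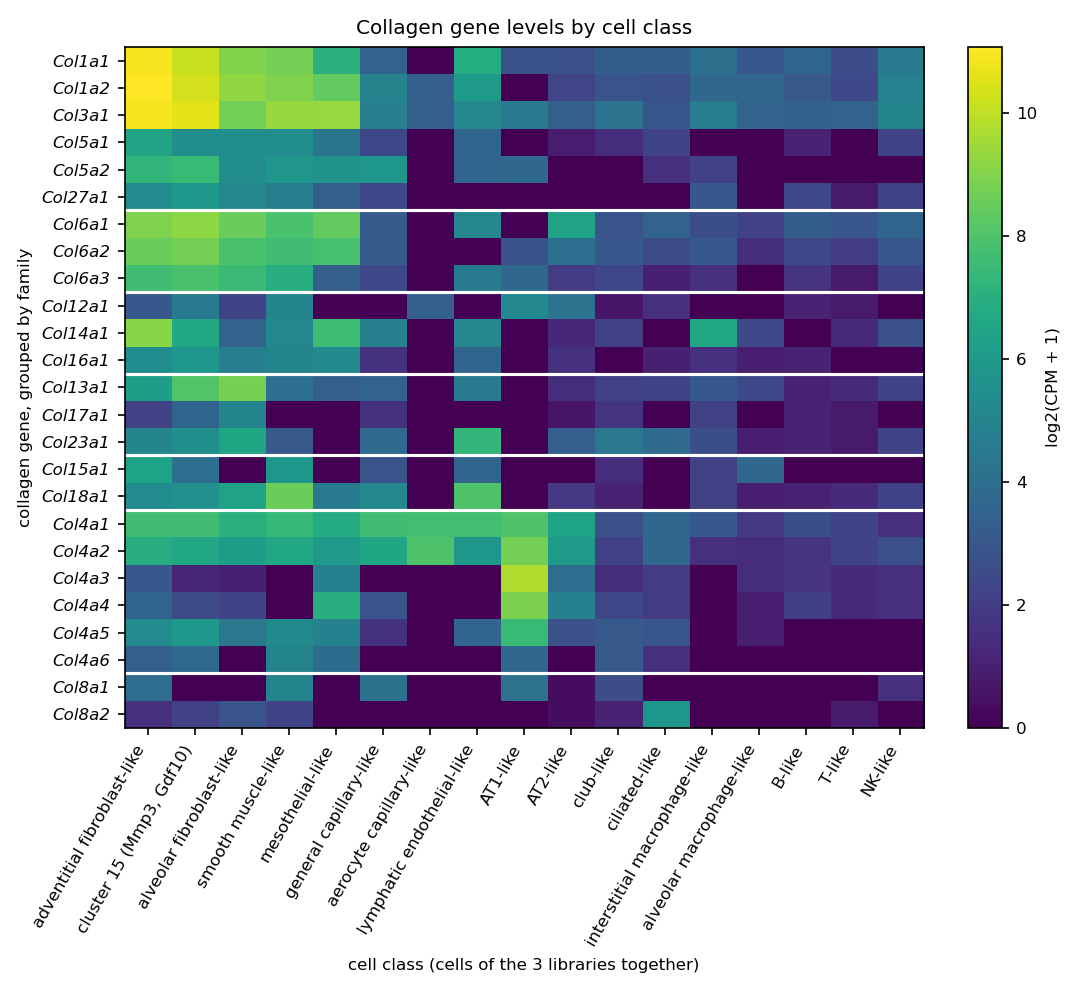
Levels of the 25 members with at least 30 UMIs (rows, grouped by family) in 17 cell classes (columns), cells of the 3 libraries together, as log2(CPM + 1). Col1a1, Col1a2, Col5a1, Col27a1 and the beaded filament genes are brightest in the 3 columns at the left, and Col3a1 and Col5a2 in the first pair of these. Col4a3 and Col4a4 are brightest in AT1-like cells, Col18a1 in smooth muscle-like cells and Col8a2 in ciliated-like cells.

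The fibrillar genes were the most abundant family, and adventitial fibroblast-like cells and cluster 15 held the highest levels. Col1a1 and Col1a2 encode the chains of type I collagen, the main fibril of lung connective tissue, and Col3a1 the single chain of type III, which mixes into thinner fibrils. Col3a1 had 3317 UMIs, Col1a2 3215 and Col1a1 2832, of which 94.7%, 96.1% and 95.4% lay in stromal cells. On mm10 Col1a1 lies on chromosome 11 (94936224 to 94953042, plus strand), Col1a2 on chromosome 6 (4504814 to 4541544, plus strand) and Col3a1 on chromosome 1 (45311538 to 45349706, plus strand). Pooled over libraries, Col1a1 stood at 1951 CPM in adventitial fibroblast-like cells, 1131 CPM in cluster 15, 498.5 CPM in alveolar fibroblast-like cells and 430.8 CPM in smooth muscle-like cells. Col1a2 had the same order, at 2152, 1268, 594.1 and 488.0 CPM. Col3a1 stood at 1942 CPM and 1567 CPM in the first pair of classes, then at 656.5 CPM in mesothelial-like and 629.1 CPM in smooth muscle-like cells.

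RefSeq sequences around the gene start (GRCm38.p6, 250 bases before to 50 bases after) were found for 35 of the 44 members. Those of Col1a2 (chr6:4505368-4505667, plus strand) and Col3a1 (chr1:45311288-45311587, plus strand) are shown because both genes were lower in adventitial fibroblast-like cells of both irradiated libraries. The windows also differ in make-up. Capitals mark matches to CCAAT or its reverse complement and to the GC box GGGCGG in Col1a2, and to the TATA motif TATAAA in Col3a1.
Col1a2: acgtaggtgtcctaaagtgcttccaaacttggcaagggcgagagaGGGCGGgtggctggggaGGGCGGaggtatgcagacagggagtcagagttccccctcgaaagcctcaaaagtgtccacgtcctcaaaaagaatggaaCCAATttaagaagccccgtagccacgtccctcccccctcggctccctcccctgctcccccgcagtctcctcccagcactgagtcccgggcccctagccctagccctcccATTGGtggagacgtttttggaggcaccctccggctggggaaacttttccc
Col3a1: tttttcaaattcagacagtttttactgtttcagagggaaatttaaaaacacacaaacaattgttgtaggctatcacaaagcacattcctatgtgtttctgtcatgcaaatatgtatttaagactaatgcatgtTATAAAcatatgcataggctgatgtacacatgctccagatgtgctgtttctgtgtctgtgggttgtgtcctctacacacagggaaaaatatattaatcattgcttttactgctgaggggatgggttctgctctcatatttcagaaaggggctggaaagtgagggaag
The Col1a2 window was 61.0% G or C and the Col3a1 window 37.7%. Counting both strands, CCAAT stood in 13 of the 38 collagen windows (some genes have more than 1 start in RefSeq) and in 37.4% of 32817 promoter windows of the same length. GGGCGG stood in 23 of the 38 and in 35.6% of all, TATAAA in 5 of the 38 and in 13.6% of all, and the AP-1 motif TGACTCA in 1 of the 38 and in 5.21% of all. A match is a description of the letters and not a binding site. The RefSeq start of Col1a2 (4505618) lies inside the gene as annotated by GENCODE, which starts at 4504814.

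In adventitial fibroblast-like cells the fibrillar genes were lower in both irradiated libraries. Col3a1 stood at 3461 CPM in NI, 1454 CPM in CONV and 1660 CPM in FLASH. NI was the high library, and the irradiated ones lay close together. The ratio to NI was 0.420 (0.363 to 0.486) in CONV and 0.480 (0.413 to 0.557) in FLASH. Col1a1 stood at 2845, 1699 and 1741 CPM, with ratios of 0.597 (0.516 to 0.692) and 0.612 (0.525 to 0.714). Col1a2 stood at 2975, 1993 and 1867 CPM, with ratios of 0.670 (0.582 to 0.772) and 0.628 (0.540 to 0.729). These 3 genes had NI on top with intervals that did not meet those of either irradiated library.

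The other fibrillar genes were less abundant. Col5a2, a chain of type V collagen, which starts fibrils and sets their width, was at 156.1, 138.9 and 167.0 CPM in adventitial fibroblast-like cells, and these values lay within each other's counting error. Its highest pooled level was 177.1 CPM in cluster 15, beside 152.4 CPM in adventitial fibroblast-like cells. Col5a1, the partner chain, was highest in adventitial fibroblast-like cells at 112.8, 85.8 and 75.9 CPM on 13, 21 and 15 UMIs. Col27a1, of a fibrillar collagen known from cartilage, was highest in cluster 15 at 81.1, 57.7 and 48.8 CPM on 11, 25 and 13 UMIs. Neither Col5a1 nor Col27a1 had enough UMIs for a comparison between libraries.

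The same 3 genes were highest in NI in cluster 15. There Col3a1 was at 2307, 1430 and 1414 CPM, with ratios to NI of 0.620 (0.540 to 0.712) in CONV and 0.613 (0.526 to 0.714) in FLASH. Col1a1 was at 1585, 1068 and 1001 CPM, with ratios of 0.674 (0.572 to 0.796) and 0.632 (0.526 to 0.760). Col1a2 was at 1607, 1248 and 1129 CPM, with ratios of 0.777 (0.662 to 0.913) and 0.702 (0.588 to 0.840). CONV and FLASH overlapped in their intervals for each gene. Whether the ratios differ between classes was not tested.

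In alveolar fibroblast-like cells, which support the alveolar wall, the chains of type I collagen stood at different ratios to NI. Col1a1 was at 689.4, 452.0 and 431.0 CPM, with ratios to NI of 0.656 (0.534 to 0.807) in CONV and 0.625 (0.494 to 0.791) in FLASH. Col1a2 was at 625.6, 577.7 and 597.0 CPM, with ratios of 0.924 (0.755 to 1.13) and 0.954 (0.765 to 1.19). Counted in the same cells, the ratio of Col1a1 to Col1a2 UMIs was 1.10 (0.876 to 1.39) in NI, 0.782 (0.656 to 0.933) in CONV and 0.722 (0.574 to 0.906) in FLASH. Col3a1 was at 697.9, 281.0 and 427.8 CPM, with ratios of 0.403 (0.320 to 0.507) and 0.613 (0.484 to 0.775). CONV was the lowest library for Col3a1, and FLASH to CONV was 1.52 (1.19 to 1.94).

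**Figure D2:**
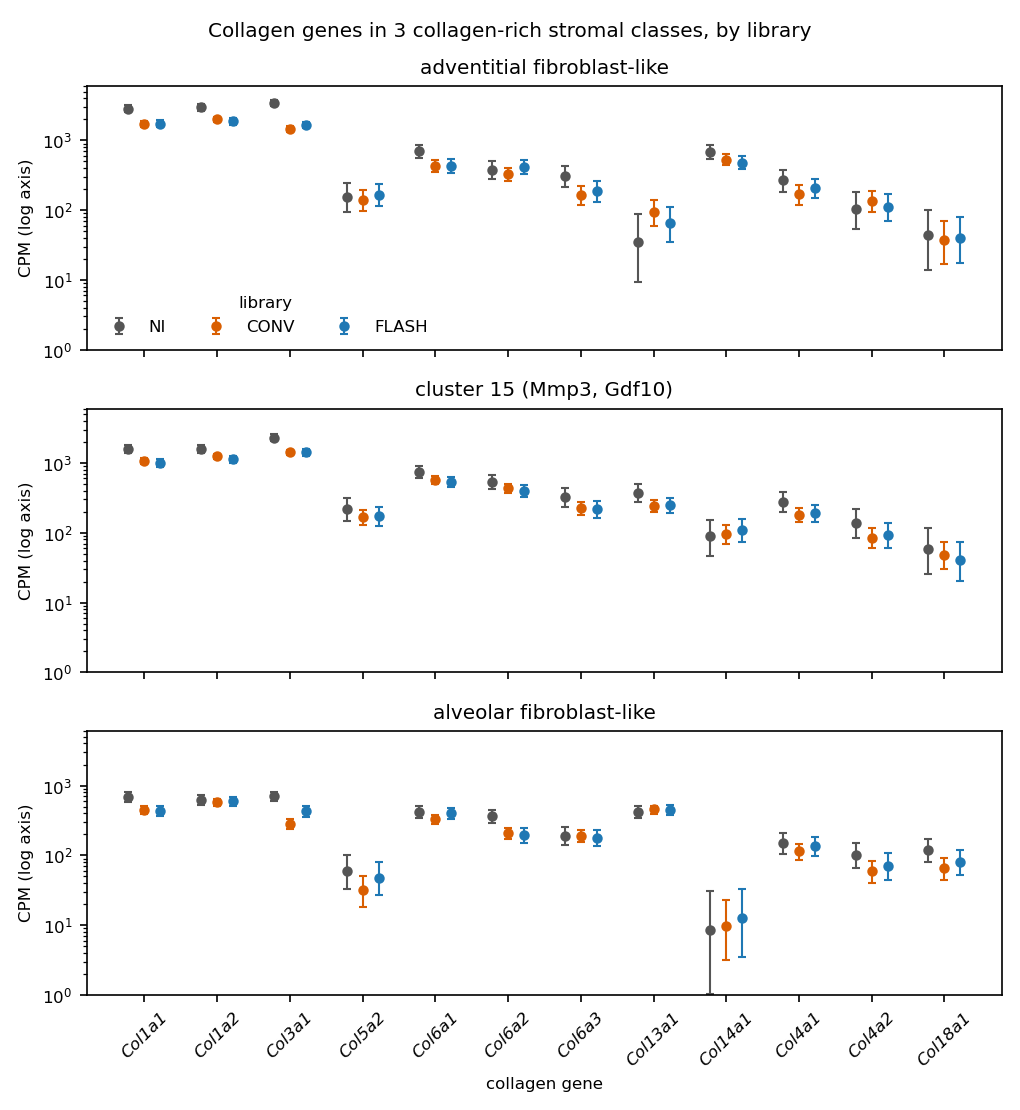
Levels of 12 collagen genes in adventitial fibroblast-like cells, cluster 15 and alveolar fibroblast-like cells by library (CPM, log axis; bars are 95% Poisson intervals, 1 library per group). Col3a1 in NI lies above both irradiated libraries in each panel, while Col13a1 in alveolar fibroblast-like cells is level across libraries at 417.1, 453.9 and 453.3 CPM.

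Smooth muscle-like cells also had less of the fibrillar genes in CONV. Col1a1 was at 619.3 CPM in NI, 217.3 CPM in CONV and 472.0 CPM in FLASH, with ratios to NI of 0.351 (0.206 to 0.578) and 0.762 (0.470 to 1.21). Col1a2 was at 697.9, 316.1 and 421.5 CPM, with ratios of 0.453 (0.289 to 0.697) and 0.604 (0.367 to 0.965). Col3a1 was at 865.1, 414.9 and 590.1 CPM, with ratios of 0.480 (0.324 to 0.700) and 0.682 (0.447 to 1.02). CONV was the lowest library for each of these genes, and FLASH lay between CONV and NI. In these cells the adventitial fibroblast markers summed to 3794, 2677 and 2849 CPM and the fibril-binding proteoglycan gene Lum stood at 393.2, 19.8 and 33.7 CPM. Their part in the result was not tested. In NI, 1 of the 30 cells held 36 of the 399 collagen UMIs.

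The beaded filament genes followed the same classes, with an added source in AT2-like cells. Type VI collagen is built from a Col6a1, a Col6a2 and a Col6a3 chain, and links cells to the surrounding fibrils. Pooled, Col6a1 stood at 588.6 CPM in cluster 15, 482.3 CPM in adventitial fibroblast-like, 370.8 CPM in alveolar fibroblast-like and 339.9 CPM in mesothelial-like cells. Col6a2 stood at 437.8, 369.4 and 238.4 CPM in the first 3 of these, and Col6a3 at 238.1, 200.8 and 186.4 CPM. The intervals of alveolar fibroblast-like and mesothelial-like cells overlapped for Col6a1. In AT2-like cells Col6a1 UMIs outnumbered those of Col6a2 by 5.41 to 1 (4.03 to 7.37), against 1.15 to 1.56 in the stromal classes with mesothelial-like cells included, and this held in each library (5.14, 5.84 and 5.21). Col6a3 was at 0.0343 of Col6a1 in AT2-like cells and at 0.0274 in mesothelial-like cells, against 0.405 to 0.532 in the fibroblast and smooth muscle classes.

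Between libraries, different type VI genes stood out in different classes. In adventitial fibroblast-like cells Col6a1 was at 693.9, 424.8 and 430.1 CPM, with ratios to NI of 0.612 (0.453 to 0.830) and 0.620 (0.451 to 0.852). Col6a3 was at 303.6, 163.4 and 187.2 CPM, with ratios of 0.538 (0.333 to 0.873) and 0.617 (0.378 to 1.01). Col6a2 was at 381.6, 326.8 and 415.0 CPM there, level within counting error. Alveolar fibroblast-like cells had lower Col6a2, at 366.0, 206.3 and 194.7 CPM, with ratios of 0.564 (0.420 to 0.759) and 0.532 (0.377 to 0.747), while Col6a1 was at 417.1, 330.1 and 402.3 CPM and Col6a3 at 191.5, 188.6 and 178.8 CPM. The Col6a1 to Col6a2 ratio in these cells was 1.14 (0.844 to 1.54) in NI, 1.60 (1.25 to 2.06) in CONV and 2.07 (1.51 to 2.85) in FLASH. In cluster 15 the type VI genes were highest in NI with ratios of 0.671 to 0.806, Col6a1 at 744.5, 574.3 and 532.5 CPM, Col6a2 at 538.1, 433.6 and 393.7 CPM, and Col6a3 at 324.3, 223.7 and 217.5 CPM.

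AT2-like cells, which make surfactant, had lower Col6a1 in both irradiated libraries. The level was 122.3 CPM in NI, 70.5 CPM in CONV and 68.3 CPM in FLASH, with ratios of 0.577 (0.439 to 0.759) and 0.559 (0.409 to 0.759). NI stood apart, and CONV and FLASH lay together. After each cell was thinned to 1000 UMIs, 13.3%, 7.44% and 5.74% of AT2-like cells had a Col6a1 UMI (48.1%, 22.6% and 17.8% unthinned, at median depths of 6466, 3865 and 3197 UMIs). In B-like cells, which should lack the gene, the thinned shares were 0.435%, 1.05% and 0% at median depths of 1911.5, 1751 and 1259 UMIs.

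The fibril-associated genes had distinct sources. Col14a1, whose product binds the surface of fibrils, had 55.5% of its 548 UMIs in adventitial fibroblast-like cells, at 685.2, 531.0 and 480.8 CPM in NI, CONV and FLASH. The ratio to NI was 0.775 (0.582 to 1.04) in CONV and 0.702 (0.515 to 0.958) in FLASH. Pooled levels were 545.1 CPM in that class, 200.2 CPM in mesothelial-like, 98.5 CPM in interstitial macrophage-like cells and 98.1 CPM in cluster 15, where libraries were level at 88.5, 94.6 and 108.7 CPM. In interstitial macrophage-like cells Col14a1 was at 64.8 CPM in NI, 152.1 CPM in CONV and 61.3 CPM in FLASH. CONV was the high library on 34 UMIs, with a ratio of 2.35 (1.10 to 5.57) to NI, and FLASH to CONV was 0.403 (0.190 to 0.798). It was the only member with enough UMIs there. Of all genes measured in that class, 21.8% were at least 1.5-fold higher and 6.41% lower in CONV than in NI, and 5.32% were higher and 8.90% lower in FLASH than in CONV.

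Col12a1, related to Col14a1, had 56.4% of its 110 UMIs in AT2-like cells. By level AT2-like cells came the fourth at 17.6 CPM (13.5 to 22.5), behind AT1-like cells at 35.4 CPM, smooth muscle-like cells at 30.5 CPM and cluster 15 at 22.7 CPM, on 6, 8 and 19 UMIs and with intervals that overlap. In AT2-like cells it stood at 6.79 CPM in NI, 19.7 CPM in CONV and 23.4 CPM in FLASH, on 6, 31 and 25 UMIs. NI was the low library, with a ratio of 2.90 (1.19 to 8.50) in CONV, and Col12a1 thus went the other way from Col6a1 in the same cells. Col16a1, also fibril-associated, had 36.2% of its 127 UMIs in cluster 15 at 14.7, 62.3 and 63.8 CPM, on 2, 27 and 17 UMIs, which was under the minimum for a comparison.

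Among the transmembrane genes, Col13a1 and Col17a1 were highest in alveolar fibroblast-like cells. Col13a1, whose product spans the membrane at cell contacts, had 59.9% of its 786 UMIs in them, with pooled levels of 445.6 CPM there, 264.4 CPM in cluster 15 and 71.7 CPM in adventitial fibroblast-like cells. Its level in alveolar fibroblast-like cells was 417.1 CPM in NI, 453.9 CPM in CONV and 453.3 CPM in FLASH. The libraries overlapped, with ratios to NI of 1.09 (0.856 to 1.39) and 1.09 (0.834 to 1.42), in the same cells where Col3a1 and Col1a1 were lower. In cluster 15 Col13a1 was at 375.9, 239.9 and 247.5 CPM, with ratios of 0.638 (0.452 to 0.911) and 0.658 (0.450 to 0.968). Of alveolar fibroblast-like cells thinned to 1000 UMIs, 30.7%, 30.3% and 38.9% had a Col13a1 UMI (66.7%, 59.8% and 48.7% unthinned), and 50.7%, 24.1% and 30.8% a Col3a1 UMI (84.0%, 40.7% and 42.7% unthinned), at median depths of 2847, 1995 and 1412 UMIs. The thinned Col3a1 share in B-like cells was 0.435%, 1.05% and 0.741%.

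Col23a1, another transmembrane collagen, was at 89.4, 94.3 and 79.8 CPM in alveolar fibroblast-like cells, level within counting error. Its highest pooled level was 158.6 CPM in lymphatic endothelial-like cells, of which NI held 0 cells. Col17a1, the transmembrane collagen of epithelial anchoring junctions, had 33 of its 58 UMIs in alveolar fibroblast-like cells. The levels there were 34.0, 29.5 and 31.9 CPM, within each other's counting error.

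The multiplexins Col15a1 and Col18a1 encode basement membrane collagens with sugar chains, and the end of the Col18a1 protein can be cut off as endostatin. Pooled, Col18a1 was highest in smooth muscle-like cells at 377.5 CPM, then at 249.2 CPM in lymphatic endothelial-like and 81.3 CPM in alveolar fibroblast-like cells. In smooth muscle-like cells it stood at 324.4 CPM in NI, 493.9 CPM in CONV and 269.7 CPM in FLASH, with a ratio of 1.52 (0.962 to 2.44) in CONV and 0.831 (0.427 to 1.55) in FLASH. CONV was the high library, and FLASH to CONV was 0.546 (0.290 to 0.975). Alveolar fibroblast-like cells had CONV as the low library, at 119.2, 64.8 and 79.8 CPM, with a CONV ratio of 0.544 (0.319 to 0.935). By class, Col15a1 was highest in adventitial fibroblast-like cells at 156.1, 61.3 and 70.8 CPM, on 18, 15 and 14 UMIs.

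Type IV collagen was the family with the most epithelial and endothelial signal. Type IV chains form 3 kinds of trimer: Col4a1 with Col4a2 in nearly all basement membranes, Col4a3 with Col4a4 and Col4a5 in the alveolus and kidney filter, and Col4a5 with Col4a6 under some epithelia and around smooth muscle. The partner genes lie head to head. Col4a1 (chromosome 8, 11198423 to 11312826, minus strand) and Col4a2 (11312805 to 11449287, plus strand) overlap by 22 bases at their starts, Col4a4 and Col4a3 on chromosome 1 have starts 72 bases apart, and those of Col4a6 and Col4a5 on chromosome X are 1309 bases apart. The windows of Col4a1 (chr8:11312777-11313076, minus strand) and Col4a2 (chr8:11312555-11312854, plus strand) are shown because one stretch of 78 bases, in capitals, belongs to both, read on opposite strands.
Col4a1: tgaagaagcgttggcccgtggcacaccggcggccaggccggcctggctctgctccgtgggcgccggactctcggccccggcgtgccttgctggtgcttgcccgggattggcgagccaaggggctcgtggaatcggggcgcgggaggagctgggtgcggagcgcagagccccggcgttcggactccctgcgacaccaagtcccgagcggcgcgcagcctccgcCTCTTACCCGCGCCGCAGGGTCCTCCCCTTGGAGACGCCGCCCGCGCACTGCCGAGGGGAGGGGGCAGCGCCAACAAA
Col4a2: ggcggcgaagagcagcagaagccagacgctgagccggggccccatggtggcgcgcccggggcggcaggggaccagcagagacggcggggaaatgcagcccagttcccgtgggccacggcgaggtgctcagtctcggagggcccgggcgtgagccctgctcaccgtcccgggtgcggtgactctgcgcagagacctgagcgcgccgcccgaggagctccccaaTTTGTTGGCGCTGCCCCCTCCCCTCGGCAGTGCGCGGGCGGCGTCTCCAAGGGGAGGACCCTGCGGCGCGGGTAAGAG
The windows were 74.0% and 73.7% G or C.

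The proportion of Col4a1 to Col4a2 transcripts counted differed between cell classes. The ratio of Col4a1 to Col4a2 UMIs was 2.18 in general capillary-like cells and close to that in each library (2.21, 2.17 and 2.15). It was 2.07 in cluster 15, 1.78 in alveolar fibroblast-like, 1.69 in adventitial fibroblast-like and 1.42 in AT2-like cells. It was lowest in AT1-like cells, the flat cells of gas exchange, at 0.603 (0.405 to 0.888), and 0.852 in aerocyte capillary-like cells. How well each gene's 3′ end is captured was not measured, so these ratios are read only across classes.

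**Figure D3:**
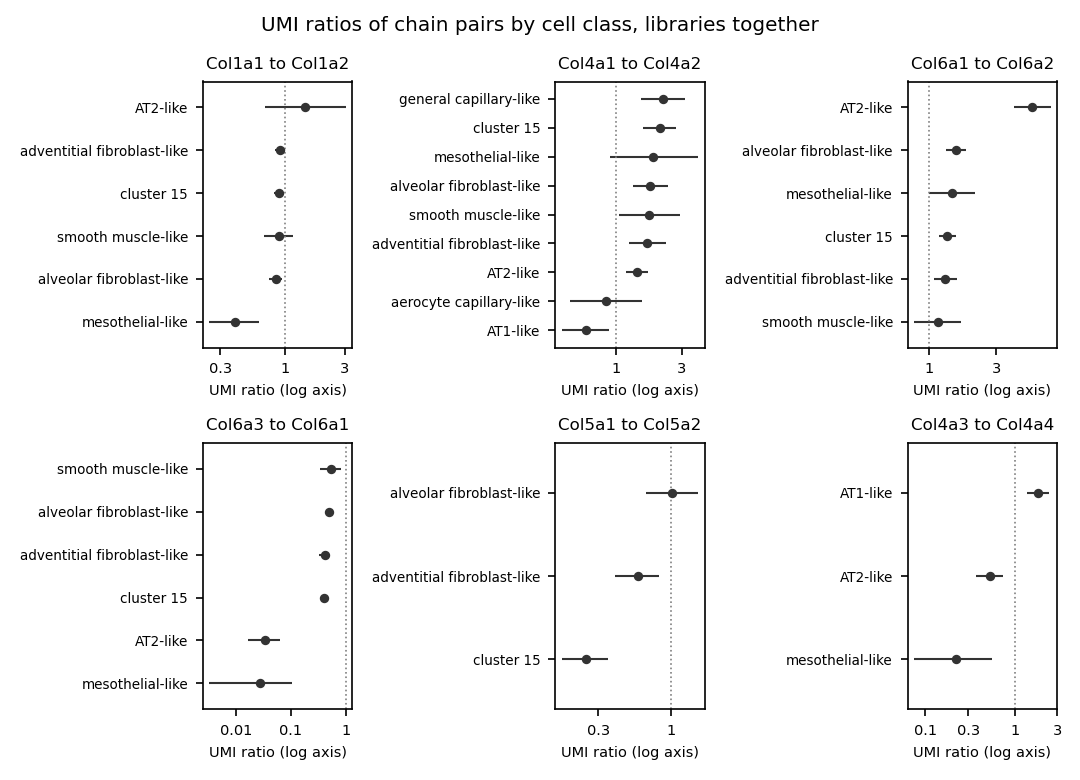
Ratio of UMIs of 2 chain genes counted in the same cells, by cell class, libraries together (log axis; bars are exact 95% intervals; dotted line at 1). Col6a1 to Col6a2 is 5.41 in AT2-like cells, and Col4a1 to Col4a2 is 0.603 in AT1-like cells.

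Col4a3 and Col4a4 had their highest levels in AT1-like cells. Col4a3 had 64.9% of its 228 UMIs in the 85 AT1-like cells, at 872.6 CPM (737.7 to 1025) pooled, against 27.9 CPM in mesothelial-like and 14.7 CPM in AT2-like cells. By library it was at 1155 CPM in NI (11 cells), 757.3 CPM in CONV (32 cells) and 869.9 CPM in FLASH (42 cells), with overlapping intervals. Col4a4 stood at 477.6 CPM pooled in AT1-like, 125.7 CPM in mesothelial-like and 28.1 CPM in AT2-like cells. Of its 244 UMIs, 81 lay in AT1-like cells and 99 in the more numerous AT2-like cells. By library Col4a4 was at 627 CPM, 358.0 CPM and 539.9 CPM in AT1-like cells. FLASH to CONV was 1.51 (0.886 to 2.60) for Col4a4, 1.15 (0.780 to 1.69) for Col4a3 and 0.840 (0.489 to 1.43) for Col4a2. NI had too few AT1-like cells for a ratio. Col4a3 UMIs outnumbered Col4a4 by 1.83 to 1 in AT1-like cells, but stood at 0.525 of Col4a4 in AT2-like and 0.222 in mesothelial-like cells.

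Col4a5, the third chain of that trimer, was at 176.9 CPM in AT1-like cells and 58.6 CPM in cluster 15. In AT1-like cells it was at 264.0, 137.7 and 180.0 CPM, on 8, 10 and 12 UMIs. After thinning, 54.5%, 53.1% and 50.0% of AT1-like cells had a Col4a3 UMI (90.9%, 75.0% and 61.9% unthinned, at median depths of 2426, 1907.5 and 1469 UMIs), and 2.22%, 1.24% and 1.51% of AT2-like cells.

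Col4a1 and Col4a2 were spread more widely. Col4a1 stood at 259.4 CPM pooled in AT1-like, 215.5 CPM in aerocyte capillary-like, 215.2 CPM in lymphatic endothelial-like and 202.6 CPM in general capillary-like cells, and these intervals overlapped. In general capillary-like cells its libraries were level at 205.9, 198.1 and 202.0 CPM, with ratios to NI of 0.962 (0.566 to 1.61) and 0.981 (0.586 to 1.62). In AT2-like cells, with the most UMIs of both genes, Col4a1 was at 79.2, 89.6 and 86.1 CPM and Col4a2 at 54.3, 62.3 and 62.7 CPM. The AT2-like ratios to NI lay between 1.09 and 1.15 for both genes, with 1 inside each interval. Col4a4 was at 24.9, 28.0 and 30.9 CPM there. In fibroblasts several ratios were below 1: in CONV, Col4a1 was at 0.623 (0.381 to 1.03) in adventitial fibroblast-like cells and 0.651 (0.436 to 0.985) in cluster 15, and Col4a2 at 0.609 (0.342 to 1.12) in cluster 15 and 0.577 (0.326 to 1.03) in alveolar fibroblast-like cells. The FLASH ratios of Col4a1 were 0.772 (0.472 to 1.27) and 0.683 (0.440 to 1.07) in the first pair of classes.

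Among members with 5 to 99 UMIs, 7 had at least 50% of their UMIs in 1 class, Col17a1 among them. Col8a2, a chain of the short network collagen type VIII, had 60 of its 76 UMIs in ciliated-like cells, at 57.6 CPM (43.9 to 74.1) against 6.62 CPM in alveolar fibroblast-like cells. By library it was at 42.9, 50.1 and 75.1 CPM there. Col7a1, of anchoring fibrils, had 11 of 19 UMIs in AT2-like cells, Col5a3 11 of 18 in cluster 15, Col26a1 5 of 7 in ciliated-like cells, Col9a1 5 of 5 in club-like cells of NI, and Col28a1 4 of 6 in cluster 15. Col4a6 had 44 UMIs and Col8a1 39. Club-like cells, which are deeply sequenced, held most of these UMIs of any class (29.5% and 23.1%), but per UMI both genes were highest in smooth muscle-like cells, at 30.5 CPM against 7.52 and 5.21 CPM in club-like cells. Col2a1, Col22a1 and Col25a1 had 1, 2 and 1 UMIs, each in a single class. Col6a5, Col6a6, Col9a3, Col11a2 and Col20a1 had 3, 6, 7, 11 and 7 UMIs.

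The summed level of all members gave the overall size of the difference by class. In adventitial fibroblast-like cells it was 12420 CPM (11790 to 13080) in NI, 7520 CPM (7180 to 7871) in CONV and 7773 CPM (7389 to 8172) in FLASH. NI was higher than either irradiated library, with ratios of 0.605 (0.565 to 0.649) and 0.626 (0.582 to 0.673), and FLASH to CONV was 1.03 (0.965 to 1.11). Cluster 15 was at 8690, 6121 and 5902 CPM, with ratios to NI of 0.704 (0.657 to 0.755) and 0.679 (0.629 to 0.733). Alveolar fibroblast-like cells were at 4094, 3046 and 3288 CPM, with ratios of 0.744 (0.686 to 0.807) and 0.803 (0.735 to 0.878). In each of these the FLASH to CONV ratio had 1 inside its interval, at 0.964 (0.905 to 1.03) in cluster 15 and 1.08 (0.997 to 1.17) in alveolar fibroblast-like cells. In smooth muscle-like cells the sum was 3922, 2460 and 3119 CPM, with ratios of 0.627 (0.533 to 0.737) and 0.795 (0.664 to 0.949), and FLASH to CONV was 1.27 (1.04 to 1.54).

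Elsewhere the sum was level or rested on fewer UMIs. AT2-like cells were at 353.2, 354.6 and 356.5 CPM, with ratios of 1.00 (0.872 to 1.16) and 1.01 (0.867 to 1.18). Within that sum the type IV genes came to 176.6, 199.5 and 203.0 CPM and the type VI genes, led by Col6a1, to 146.0, 87.1 and 84.2 CPM. Mesothelial-like cells were at 2235, 2633 and 2383 CPM and AT1-like cells at 2640, 2120 and 2445 CPM. General capillary-like cells were at 691.3, 548.7 and 425.7 CPM, with a FLASH ratio of 0.616 (0.446 to 0.840), but 1 NI cell held 28 of the 141 NI UMIs, and NI was at 568.8 CPM without it. Ciliated-like cells were at 98.0, 196.5 and 164.0 CPM, on 16, 102 and 59 UMIs, with a CONV ratio of 2.00 (1.18 to 3.64). Interstitial macrophage-like cells were at 136.7, 205.8 and 280.9 CPM, on 19, 46 and 55 UMIs, with a FLASH ratio of 2.054 (1.2 to 3.665). There 1 FLASH cell held 15 of the 55 UMIs, and FLASH was at 210.4 CPM without it. Lymphatic endothelial-like cells were at 997.2 CPM in CONV and 1226 CPM in FLASH.

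Cells that should not make collagen set the background. B-like cells were at 28.8, 82.1 and 156.7 CPM, T-like cells at 55.8, 39.7 and 67.8 CPM, and NK-like cells at 32.9, 373.6 and 85.5 CPM. Single cells weighed on these values: 1 FLASH B-like cell held 15 of 33 UMIs (86.0 CPM without it) and 1 CONV NK-like cell 38 of 59 (137.6 CPM without it). These levels were far below those of fibroblasts. Club-like cells stood at 119.1, 153.2 and 95.1 CPM and ciliated-like cells at 98.0, 196.5 and 164.0 CPM. The NI values of B-, T- and NK-like cells were lower than both, with intervals apart from that of club-like cells (93.4 to 149.8 CPM in NI). In CONV and FLASH, B- and NK-like cells lay on either side of the club-like value, and T-like cells stayed lower.

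**Figure D4:**
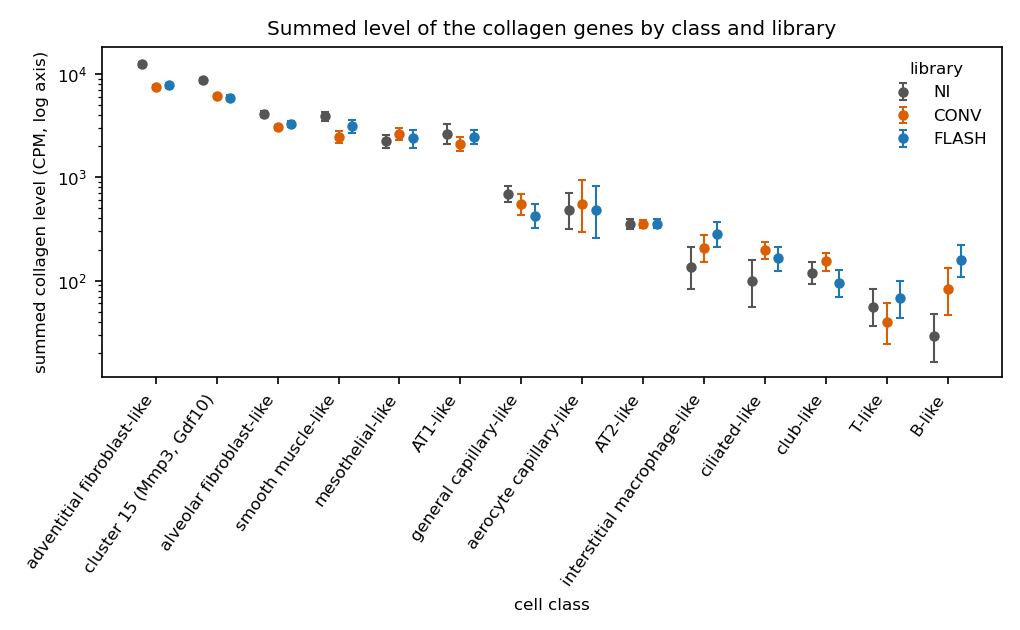
Summed level of the 44 collagen genes in 14 cell classes by library (CPM, log axis; bars are 95% Poisson intervals, 1 library per group). NI lies above both irradiated libraries in the 3 classes at the left and in smooth muscle-like cells, while the AT2-like values (353.2, 354.6 and 356.5 CPM) coincide.

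Counted by gene, the members called were nearly all on the lower side. A member was measured in a comparison when the higher library had at least 30 UMIs, and was past the fold when its CPM ratio was at least 1.5 in either direction. Of 10 members measured in adventitial fibroblast-like cells, 0 were past the fold higher and 5 lower in CONV against NI, where 16.7% of all measured genes were higher and 6.68% lower. The 5 were Col1a1, Col3a1, Col4a1, Col6a1 and Col6a3. In FLASH against NI 0 were higher and 5 lower of 9 (Col1a1, Col1a2, Col3a1, Col6a1 and Col6a3), beside 16% and 8.28% of all genes. The median log2 ratio of the measured members was -0.63 and -0.67, against 0.09 and 0.10 over all measured genes. Over genes with at least 30 UMIs in both libraries it was -0.058 and -0.043.

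In cluster 15, 4 of 11 members were lower in CONV (Col3a1, Col4a1, Col4a2 and Col13a1) and 3 of 9 in FLASH (Col1a1, Col3a1 and Col13a1), beside 6.49% and 6.73% of all measured genes. Higher members numbered 0 of 11 and 0 of 9, beside 15% and 11.4%. Among members in alveolar fibroblast-like cells 5 of 11 were lower in CONV (Col1a1, Col3a1, Col4a2, Col6a2 and Col18a1) and 3 of 8 in FLASH (Col1a1, Col3a1 and Col6a2), beside 6.24% and 7.93%. Higher members numbered 0 of 11 and 0 of 8, beside 11.2% and 9.53%. The members' medians were -0.54 and -0.55 in cluster 15 (all genes 0.05 and -0.01) and -0.39 and -0.13 in alveolar fibroblast-like cells (all genes -0.01 and -0.01). Genes with at least 30 UMIs in both libraries had medians of -0.091 and -0.121 in cluster 15 and -0.115 and -0.093 in alveolar fibroblast-like cells. The members' FLASH median in alveolar fibroblast-like cells thus lay close to that of such genes.

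Smooth muscle-like and AT2-like cells had fewer members measured. In smooth muscle-like cells 3 of 4 were lower (Col1a1, Col1a2 and Col3a1) and 1 higher (Col18a1) in CONV, beside 14.5% lower and 10.9% higher of all genes. In FLASH 1 of 4 was lower (Col1a2) and 0 higher, beside 16.3% and 4.59%, so this count is close to the background. In AT2-like cells 1 of 5 was lower (Col6a1) and 1 higher (Col12a1) in CONV, beside 5.79% and 11.5%, and 1 of 4 was lower (Col6a1) and 0 higher in FLASH, beside 7.87% and 8.78%. The 1 member measured in general capillary-like cells, Col4a1, was not past the fold in CONV or FLASH, beside 32.0% and 29.5% of all genes in either direction.

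FLASH against CONV had 4 members called over all classes. In alveolar fibroblast-like cells 1 of 11 members was higher (Col3a1) and 0 lower, beside 2.65% and 6.26% of all genes. The Col3a1 ratio was past 1.5-fold in 6 of 10 settings, at 1.44 to 1.53. In adventitial fibroblast-like cells 0 of 10 and in cluster 15 0 of 11 members were past it, beside 10.9% and 9.64% of all genes in either direction. Elsewhere Col18a1 was lower in smooth muscle-like cells (1 of 3 measured, beside 10.2% of all genes lower and 2.59% higher) and Col4a4 higher in AT1-like cells (1 of 3 measured, beside 3.45% higher and 10.6% lower). Col14a1 was lower in interstitial macrophage-like cells (1 of 1 measured), as given above. In AT2-like cells 0 of 5 members were past the fold, beside 7.72% of all genes. Where no member was past the fold, intervals of the less abundant genes still reached past 1.5-fold, as for Col4a1 in adventitial fibroblast-like cells at 1.24 (0.784 to 1.96).

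**Figure D5:**
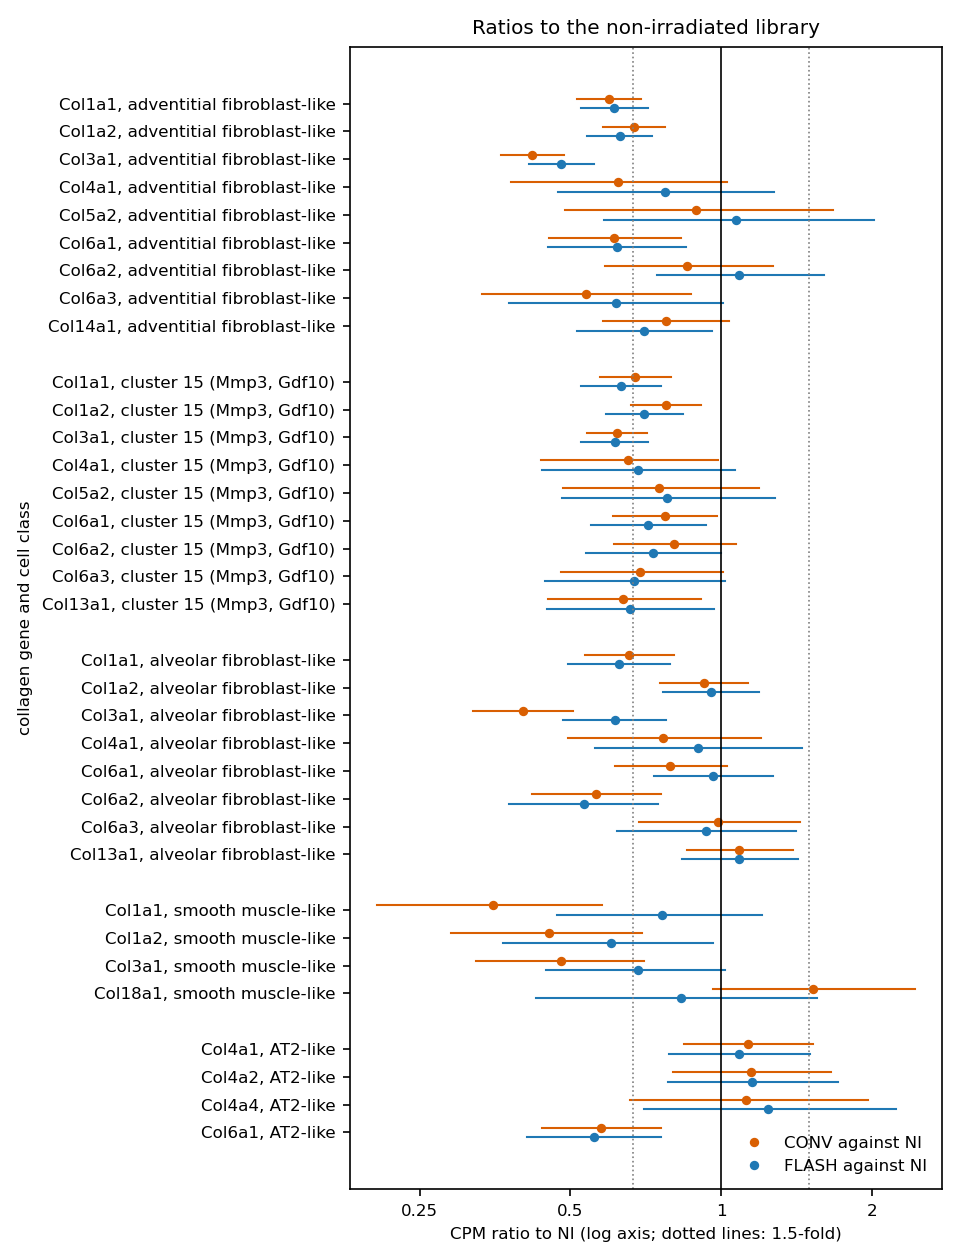
Ratio of CPM to the NI library in 5 cell classes for the members measured in both comparisons (log axis; points are CONV and FLASH, bars are exact 95% intervals, dotted lines mark 1.5-fold). Col3a1 is left of 1 in all 4 stromal classes shown, and Col13a1 in alveolar fibroblast-like cells sits at 1.09 for both.

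Markers of cell identity moved beside these ratios. In adventitial fibroblast-like cells all 9 adventitial markers had UMIs in each library, and they summed to 89910 CPM in NI, 56650 CPM in CONV and 51910 CPM in FLASH. The alveolar fibroblast markers there (6 of 8, 7 of 8 and 6 of 8 with a UMI) summed to 3183, 5093 and 5405 CPM. Their part in the lower collagen was not tested. In alveolar fibroblast-like cells the class's own 8 markers were near level, at 19240, 20280 and 20470 CPM, and in cluster 15 the same markers were at 11470, 11690 and 11970 CPM. The adventitial markers were higher in NI in both, at 31290, 26360 and 27100 CPM in cluster 15 and at 24860, 21170 and 21030 CPM in alveolar fibroblast-like cells, and the NI intervals did not meet the others. AT2 markers, which fibroblasts should lack, were at 1324, 3881 and 2778 CPM in alveolar fibroblast-like and at 988.8, 3680 and 2642 CPM in adventitial fibroblast-like cells. T markers, also foreign to fibroblasts, were instead highest in NI. They were at 187.2, 29.5 and 12.8 CPM in alveolar fibroblast-like and at 138.8, 20.4 and 10.1 CPM in adventitial fibroblast-like cells. Thymocyte markers were at 97.9, 1.97 and 0 CPM in alveolar fibroblast-like cells. Median depth per cell also moved, from 3541 UMIs in NI to 2041 and 1826 in adventitial fibroblast-like cells. The part of these in the ratios was not tested.

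Serpinh1, which encodes the collagen chaperone HSP47, was past the fold and lower in all 3 classes in FLASH, and in adventitial fibroblast-like cells and cluster 15 in CONV. Of 20 genes of processing in the endoplasmic reticulum, 4, 8 and 8 were measured in CONV against NI in adventitial fibroblast-like cells, cluster 15 and alveolar fibroblast-like cells, with 1, 2 and 1 lower and 1, 0 and 1 higher. In FLASH 3, 5 and 5 were measured, with 1, 2 and 2 lower and 1, 0 and 0 higher. Beside these stand 6.68%, 6.49% and 6.24% of all genes lower and 11.2% to 16.7% higher in CONV, and 8.28%, 6.73% and 7.93% lower and 9.53% to 16.0% higher in FLASH. With so few genes measured the counts do not set the list apart. Serpinh1 was at 1726, 1148 and 1032 CPM in adventitial fibroblast-like cells, 1518, 862.6 and 806.2 CPM in cluster 15, and 1089, 729.0 and 641.7 CPM in alveolar fibroblast-like cells. NI was highest in all 3 classes, and the FLASH ratios were 0.598 (0.490 to 0.731), 0.531 (0.436 to 0.646) and 0.589 (0.487 to 0.711). P4hb, the shared subunit of prolyl hydroxylase, was lower in cluster 15, at 302.2, 175.3 and 116.2 CPM, with ratios of 0.580 (0.392 to 0.870) and 0.385 (0.233 to 0.629). P3h3, of the prolyl 3-hydroxylase family, was past the fold in adventitial fibroblast-like cells, at 112.8, 187.9 and 192.3 CPM, but both intervals hold a ratio of 1, at 1.67 (0.885 to 3.36) and 1.71 (0.889 to 3.49). P3h3 was also the higher gene of alveolar fibroblast-like cells in CONV, at 68.09, 133.6 and 98.97 CPM. Its ratios there were 1.962 (1.126 to 3.625) in CONV and 1.454 (0.7711 to 2.845) in FLASH.

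Of 21 genes of propeptide removal, cross-linking and fibril assembly, 10 were measured in adventitial fibroblast-like cells. In each irradiated library 5 were lower (Pcolce, Loxl1, Dcn, Lum and Fbln1) and 0 higher. Of all genes in that class, 6.68% were lower and 16.7% higher in CONV, and 8.28% and 16.0% in FLASH. Pcolce, which speeds removal of the procollagen end, was at 1995, 1001 and 1144 CPM. Loxl1, a cross-linking enzyme, was at 737.3, 437.0 and 399.8 CPM. Dcn and Lum, proteoglycans that bind fibrils, were at 16640, 10130 and 9165 CPM and at 832.7, 224.7 and 248.0 CPM. Dcn is also one of the adventitial markers, and both Dcn and Lum are among the leading genes of the adventitial fibroblast-like cluster. In cluster 15, 2 of 11 were lower in CONV (Pcolce and Loxl1) and 1 higher (Fmod), beside 6.49% and 15% of all genes. In FLASH 1 of 9 was lower there (Loxl1), beside 6.73%. Alveolar fibroblast-like cells had 2 of 9 lower in CONV (Loxl1 and Fbln1), beside 6.24% of all genes. In FLASH 1 of 8 was lower there (Fbln1) and 1 higher (Lox), beside 7.93% and 9.53%. Lox, a cross-linking enzyme gene, was at 123.4 CPM in NI, 169.0 CPM in CONV and 229.9 CPM in FLASH. Counts of 1 among so few genes do not set the list apart in cluster 15 and alveolar fibroblast-like cells.

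Few receptor and breakdown genes could be measured, and with 6.24% to 8.28% of all genes lower in these classes a count of 0 lower does not set them apart. Of 10 receptor genes, 2, 2 and 3 were measured in CONV against NI in adventitial fibroblast-like cells, cluster 15 and alveolar fibroblast-like cells. Among them 0 were lower and 1 was higher (Itgb1, the common integrin chain, in adventitial fibroblast-like cells, beside 16.7% of all genes higher). In FLASH 2 were measured in each of these classes, and 0 were past the fold. Of 9 breakdown genes, 6, 5 and 4 were measured in CONV and 4, 4 and 3 in FLASH, and 0 were lower in these classes in either comparison. Past the fold and higher were 1, 0 and 1 in CONV and 1, 0 and 2 in FLASH. Beside these stand 16.7%, 15% and 11.2% of all genes higher in CONV, and 16.0%, 11.4% and 9.53% in FLASH. With so few genes measured these counts do not set the list apart. Mmp2, a protease that cuts unwound and type IV collagen, was at 529.1, 910.9 and 1088 CPM in adventitial fibroblast-like cells, with ratios of 1.72 (1.29 to 2.32) and 2.06 (1.54 to 2.78). Its alveolar fibroblast-like level was 242.6, 312.4 and 421.4 CPM. In cluster 15 NI was instead the highest, at 788.7, 641.2 and 682.5 CPM, with ratios of 0.813 (0.648 to 1.03) and 0.865 (0.678 to 1.11). Timp3, a matrix-bound inhibitor of such proteases, was at 502.2, 797.8 and 775.8 CPM in alveolar fibroblast-like cells, with ratios of 1.59 (1.29 to 1.97) and 1.54 (1.24 to 1.94). In cluster 15 its ratios were 1.28 (1.08 to 1.52) and 1.26 (1.05 to 1.51). In adventitial fibroblast-like cells Timp3 was at 2611, 2908 and 2166 CPM, and FLASH was the lowest library with a ratio to NI of 0.830 (0.714 to 0.965).

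Genes outside the family with the most similar pattern were found over 59 points of class and library, among 6772 genes, by Pearson's r of log2(CPM + 1). These points share libraries and depth, and the values are a description. For Col1a1 they were Tnxb (0.877), Sod3 (0.872), Nnmt (0.869), Adamts2 (0.864) and Dpt (0.858). Col1a2 was at 0.859 and Col3a1 at 0.851, and Col4a3 at 0.074. For Col4a1 they were Lamb2 (0.859), Sparc (0.859), Serpinh1 (0.858), Igfbp7 (0.854) and Fermt2 (0.850), ahead of its neighbour Col4a2 at 0.795. For Col6a1 they included Bicc1 (0.845), Scarf2 (0.842), C1s1 (0.837) and Tnxb (0.829), with Col6a2 at 0.849.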

How the data were processed

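The values were counts of UMIs per gene and cell barcode, deposited as whole numbers with no normalization. The authors made these counts from Chromium 3′ version 2 libraries, with Cell Ranger 2.0 and build mm10 named in the submitters' processing notes. The matrices held 1761, 2507 and 2394 barcodes and 7114360, 7463259 and 5498902 UMIs in NI, CONV and FLASH.

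Barcodes with under 200 genes (50), over 10% mitochondrial UMIs (154) and the top-scoring doublets by Scrublet at 0.8% per 1000 barcodes (117) were removed, since the automatic limit marked only 45 (0.675%). Cells were scaled to 10000 UMIs and clustered on 2000 variable genes without the members, 30 components and 15 neighbours (Leiden, resolution 1). A class needed at least 3 of its markers in 10% of cells and 2-fold higher than elsewhere, limits set after the data were seen, and 1 of them in the cluster's top 10 genes.

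CPM carry exact Poisson intervals, ratios exact conditional binomial intervals and shares Clopper-Pearson intervals. Only the ratio intervals were tried on simulated data, for alveolar fibroblast-like cells. The simulated counts held Poisson counting error alone, so the trial does not cover spread between cells. Classes with at least 20 cells in both libraries were compared. Members with at least 100 UMIs are described singly, and every member past the fold is named. The chain pair of Col4a3 and Col4a4 was added after the design. Members and lists were chosen with earlier results of these data known. Of the gene identifiers, 27645 of 27998 were found in GENCODE M21 (mm10), with all 44 members among them. Clustering ran in scanpy 1.11.5 (Python 3.11.15) with igraph 0.11.9, and statistics in scipy 1.17.1. A gene among those most like Col6a1 is not reported here.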

Additional observations from a re-analysis of the deposited data

Results flagged for a closer look

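The Col18a1 ratio to NI was past 1.5-fold in opposite directions in 2 classes of the CONV library. The smooth muscle-like interval holds a ratio of 1. The ratio was 1.523 (0.962 to 2.44) in smooth muscle-like cells, on 50 CONV and 33 NI UMIs, and 0.5442 (0.319 to 0.935) in alveolar fibroblast-like cells. The difference between the classes was not tested. Over 10 settings the ratio lay between 1.44 and 1.90 in smooth muscle-like cells, past 1.5-fold in 6 of them, and between 0.505 and 0.589 in alveolar fibroblast-like cells, past it in all 10.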

How the results depend on the processing

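No paired analysis was possible because each group had 1 library, and for the same reason no replicate could be left out. Of 162 summed levels recomputed 152 moved by less than their counting interval, of 72 counts 59 stayed within 1.5 times, and of 539 gene ratios 537 stayed within their interval. No called value changed direction. The CONV ratio of alveolar fibroblast-like cells was 0.649 at resolution 1.5 and 0.6625 with up to 20% mitochondrial UMIs, and the FLASH ratio 0.711 and 0.715, with Col3a1 at 0.484 and 0.4815 in FLASH. In cluster 15 the 20% limit gave 0.648 and 0.628, and scaling by the median ratio of genes gave 0.739 in FLASH. Subtracting the level of B-like cells gave 0.855 and 0.791 in AT2-like cells. Weighting every cell equally, an alternative chosen after seeing the data, gave 0.530 for CONV in smooth muscle-like cells and 1 higher pair of member and class in CONV. In alveolar and adventitial fibroblast-like cells and cluster 15 together, 14 of 32 pairs were lower in CONV and 11 of 26 in FLASH. With at least 100 UMIs the lower pairs were 8 of 17 and 7 of 13. At 2-fold they were 2 of 32 and 1 of 26. Fewer pairs can be called under either change. With at least 10 UMIs 3 of 47, 4 of 47 and 4 of 49 pairs were higher in CONV against NI, FLASH against NI and FLASH against CONV. At that minimum 17, 14 and 0 pairs were lower. The shares over all genes were not computed at these settings. The 1 pair higher in FLASH against CONV was 0 with mitochondrial limits of 5% and 20%, without doublet removal, at 2-fold and with equal weights. Except for the constructions named, the cause was not tested. Col3a1 was past 1.5-fold lower in 10 of 10 settings in each of the 3 classes in both comparisons. Col1a1 passed in cluster 15 in 6 of 10 settings in CONV and 9 of 10 in FLASH, and Col13a1 in 5 and 4 of 10. At this depth at most 11 of the 44 members could be measured in any class.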
